A study of Mus musculus with 35 samples.

Results

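Oxidative phosphorylation is carried out by 5 protein complexes of the inner mitochondrial membrane, and the genes described here encode their subunits. Members were the genes of the deposited striatal table whose symbol starts with Nduf, Sdha to Sdhd, Uqcr, Cox4 to Cox8 or Atp5 and whose mean over all mice was at least 1 CPM (counts per 1000000 of the mouse's total count). Of 22099 genes listed, 83 had such a name and 80 reached the limit. Just inside it were Cox6b2 at a mean of 1.38 CPM and Ndufa4l2 at 1.92 CPM, and outside it were Cox7a1 at 0.554, Cox8b at 0.407 and Cox7b2 at 0.225 CPM. The 80 members comprise 35 subunits of complex I, 4 of complex II, 7 of complex III, 14 of complex IV and 15 of complex V, plus 4 assembly or associated factors (Ndufaf1, Ndufa12l, Cox7a2l and Atp5s). The remaining one, Cox4nb, shares its name with complex IV but is now called Emc8 and belongs to a complex of the endoplasmic reticulum. Ndufa4 and Ndufa4l2 were placed with complex IV, of which Ndufa4 is now known to be a subunit.

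Complexes I to IV pass electrons from NADH or succinate to oxygen, and complexes I, III and IV pump protons across the membrane. Complex V, the ATP synthase, lets the protons back and makes ATP. Most subunits are encoded in the nucleus and some in the mitochondrial genome, and the nuclear genes are transcribed in every cell with mitochondria. Neurons depend heavily on this pathway, and impaired energy metabolism in the striatum has long been studied in Huntington's disease.

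RNAseq was performed on the striatum of 35 female mice congenic on C57BL/6J, aged 299 to 304 days, with 1 library per mouse. HttQ111/+ mice carry 1 knock-in huntingtin allele with an expanded CAG tract at the endogenous locus, so the mutant allele is present in every cell, and Htt+/+ mice are their wild-type litter mates. Mice were treated between 2 and 10 months of age and received weekly intraperitoneal injections of saline (4 µL/g), control ASO (50 mg/kg, an antisense oligonucleotide used as a control) or Htt ASO (50 mg/kg, directed at both Htt alleles). Groups held 6 mice, except Htt+/+ mice given control ASO (n = 5), and all RNA came from the right hemistriatum except that of 1 Htt+/+ mouse given Htt ASO. Total counts were 32200158 to 38641924 per mouse.

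Hdh, the older symbol of Htt, had medians of 72.0 CPM in HttQ111/+ mice given Htt ASO and 73.5 CPM in those given control ASO. Between these treatments the difference in HttQ111/+ mice did not pass the test (log2 fold change -0.073, SE 0.095, adjusted p = 0.999, limma after voom). Nor did it over both genotypes (-0.077, SE 0.068, adjusted p = 0.967). Averaged over treatments, Hdh was lower in HttQ111/+ than in Htt+/+ mice (-0.23, SE 0.055, adjusted p = 0.00100). The sample titles carry a lane number, and 1 of the 6 lanes, lane 7, held 6 HttQ111/+ mice and no Htt+/+ mouse. Of 11 tested markers of striatal projection neurons, 9 fell in HttQ111/+ mice and 1, Tac1, rose by 0.13 on the log2 scale (adjusted p = 2.57e-04), and the summed level of the list was 7819 to 9168 CPM in Htt+/+ and 5325 to 6346 CPM in HttQ111/+ mice. Markers of other cells of the tissue also fell, in 3 of 6 for microglia, 3 of 7 for oligodendrocytes, 2 of 6 for parvalbumin interneurons and 3 of 7 for astrocytes, with 1 astrocyte marker higher. In this genotype comparison over all treatments, 18.0% of all genes fell and 21.8% rose. Averaged over treatments, limma called none of 5 cortical, 5 choroid plexus or 3 blood markers while edgeR called 2 choroid plexus markers lower, and the summed choroid plexus level reached 1580 CPM in 1 Htt+/+ mouse on control ASO against an Htt+/+ median of 69.0 CPM. In bulk tissue, fewer cells of a type and less RNA per cell cannot be told apart.

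The starts of 63 of the 80 genes had an entry in the RefSeq promoter table (GRCm38.p6), which gives 250 bases before and 50 after each transcription start, in 68 windows. Exact letters known to be bound by factors of mitochondrial gene transcription were looked for on both strands. The NRF1 letters (GCATGCGC) were in 14.7% of the members' windows against 2.71% of all 32851 windows, and the YY1 letters (AAGATGGCG) in 10.3% against 1.40%. GABPA letters (CCGGAAGT) were in 7.35% against 3.89% and ESRRA letters (TCAAGGTCA) in 2.94%, that is 2 windows, against 0.423%. A match is a description of the letters and not of binding. The first 3 windows shown belong to the members that were higher in HttQ111/+ mice under every treatment, and hold none of the 4 motifs. The other 3 each belong to the called member with the smallest adjusted p among those that match 1 motif (NRF1, GABPA and ESRRA in turn), with the match in capitals. All are written 5′ to 3′ on the strand of the gene.
Atp5g1, chr11:96075582-96075881, minus strand: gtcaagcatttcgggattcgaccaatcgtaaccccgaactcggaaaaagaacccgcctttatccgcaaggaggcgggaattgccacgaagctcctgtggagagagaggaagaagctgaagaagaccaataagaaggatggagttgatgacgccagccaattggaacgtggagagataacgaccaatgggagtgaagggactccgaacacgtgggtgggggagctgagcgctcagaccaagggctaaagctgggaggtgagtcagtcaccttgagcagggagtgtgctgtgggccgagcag
Atp5b, chr10:128083057-128083356, plus strand: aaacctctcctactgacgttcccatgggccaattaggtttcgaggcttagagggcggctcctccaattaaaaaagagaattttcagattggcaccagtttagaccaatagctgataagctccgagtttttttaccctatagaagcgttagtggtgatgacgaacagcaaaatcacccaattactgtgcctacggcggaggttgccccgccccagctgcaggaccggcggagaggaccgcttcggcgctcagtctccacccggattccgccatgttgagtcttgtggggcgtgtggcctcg
Ndufb6, chr4:40279372-40279671, minus strand: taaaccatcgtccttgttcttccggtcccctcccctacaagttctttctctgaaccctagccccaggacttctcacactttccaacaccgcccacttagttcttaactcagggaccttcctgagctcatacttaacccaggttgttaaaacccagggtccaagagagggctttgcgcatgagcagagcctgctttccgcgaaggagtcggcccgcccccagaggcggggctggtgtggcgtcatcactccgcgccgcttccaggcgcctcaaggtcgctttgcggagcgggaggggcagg
Ndufa8, chr2:36049289-36049588, minus strand: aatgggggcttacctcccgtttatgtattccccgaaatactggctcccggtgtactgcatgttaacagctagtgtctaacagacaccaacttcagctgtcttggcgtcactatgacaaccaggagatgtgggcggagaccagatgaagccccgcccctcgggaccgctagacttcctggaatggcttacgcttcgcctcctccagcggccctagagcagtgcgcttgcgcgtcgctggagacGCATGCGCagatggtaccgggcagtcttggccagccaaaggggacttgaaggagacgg
Ndufs3, chr2:90904672-90904971, minus strand: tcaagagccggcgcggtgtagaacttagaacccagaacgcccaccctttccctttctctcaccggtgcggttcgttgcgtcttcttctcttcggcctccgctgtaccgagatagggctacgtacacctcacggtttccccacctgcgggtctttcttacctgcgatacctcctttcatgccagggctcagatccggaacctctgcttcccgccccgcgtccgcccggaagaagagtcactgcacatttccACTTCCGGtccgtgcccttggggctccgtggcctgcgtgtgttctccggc
Atp5g3, chr2:73911277-73911576, minus strand: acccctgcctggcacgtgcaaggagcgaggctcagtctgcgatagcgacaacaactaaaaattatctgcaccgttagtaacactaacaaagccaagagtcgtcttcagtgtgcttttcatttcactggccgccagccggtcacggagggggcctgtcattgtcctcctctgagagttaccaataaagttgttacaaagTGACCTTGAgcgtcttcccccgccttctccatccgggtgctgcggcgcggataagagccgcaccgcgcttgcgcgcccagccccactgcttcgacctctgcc
The Ndufa8 window reads the NRF1 letters directly, while Ndufs3 and Atp5g3 hold the GABPA and ESRRA letters on the opposite strand.

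Levels between genes can be compared only per length of transcript, and the mean CPM per kilobase is used for that alone. Complex V had the most abundant member, Atp5b, at 577 CPM per kilobase, and complex IV members ran from 2.06 for Ndufa4l2 to 468 for Cox4i1. Medians were 70.4 CPM per kilobase for complex I, 70.1 for complex II, 103 for complex III, 181 for complex IV and 139.9 for complex V. Members varied little between mice of 1 group: the median within-group SD was 0.062 on the log2 scale, and for the 73 members at 20 CPM or more it was 0.062 against 0.074 for all 7848 genes at that level. The members with the lowest counts, all tissue isoforms, varied most. Their SDs were 0.33 for Cox6b2 (mean 1.38 CPM), 0.25 for Ndufa4l2 (1.92), 0.20 for Cox4i2 (2.49) and 0.20 for Cox6a2 (3.68). Low counts and isoform type cannot be told apart here.

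The comparison of HttQ111/+ with Htt+/+ mice, averaged over the 3 treatments, asks what the mutant allele does to these genes. Of the 80 members, 28 rose and 5 fell, and 47 did not pass the test (limma after voom, Benjamini-Hochberg over all 17639 genes tested, threshold 0.05). That is 33 members in a comparison that called 39.8% of all genes, 21.8% higher and 18.0% lower. The changes were small: 5 called members rose and 3 fell by more than 0.1 on the log2 scale, and the median log2 fold change was 0.044 for members and 0.0037 for all genes. Differences were above 0 for 61 of the 80. After each mouse was corrected for its trend on transcript length, 24 rose and 13 fell, with a median of 0.018; the members' median transcript length was 769 bases against 3055 for all genes at 1 CPM or more. With library totals in place of TMM, which raised the median of all genes by 0.039, 54 members rose and 4 fell. With lane as a covariate 27 rose and 4 fell, and without lane 7 25 rose and 5 fell. Summed over the 75 subunits, the level had a median of 8504 CPM in Htt+/+ mice (8291 to 9249) and 8923 CPM in HttQ111/+ mice (8596 to 9490), and the groups overlap.

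**Figure D1:**
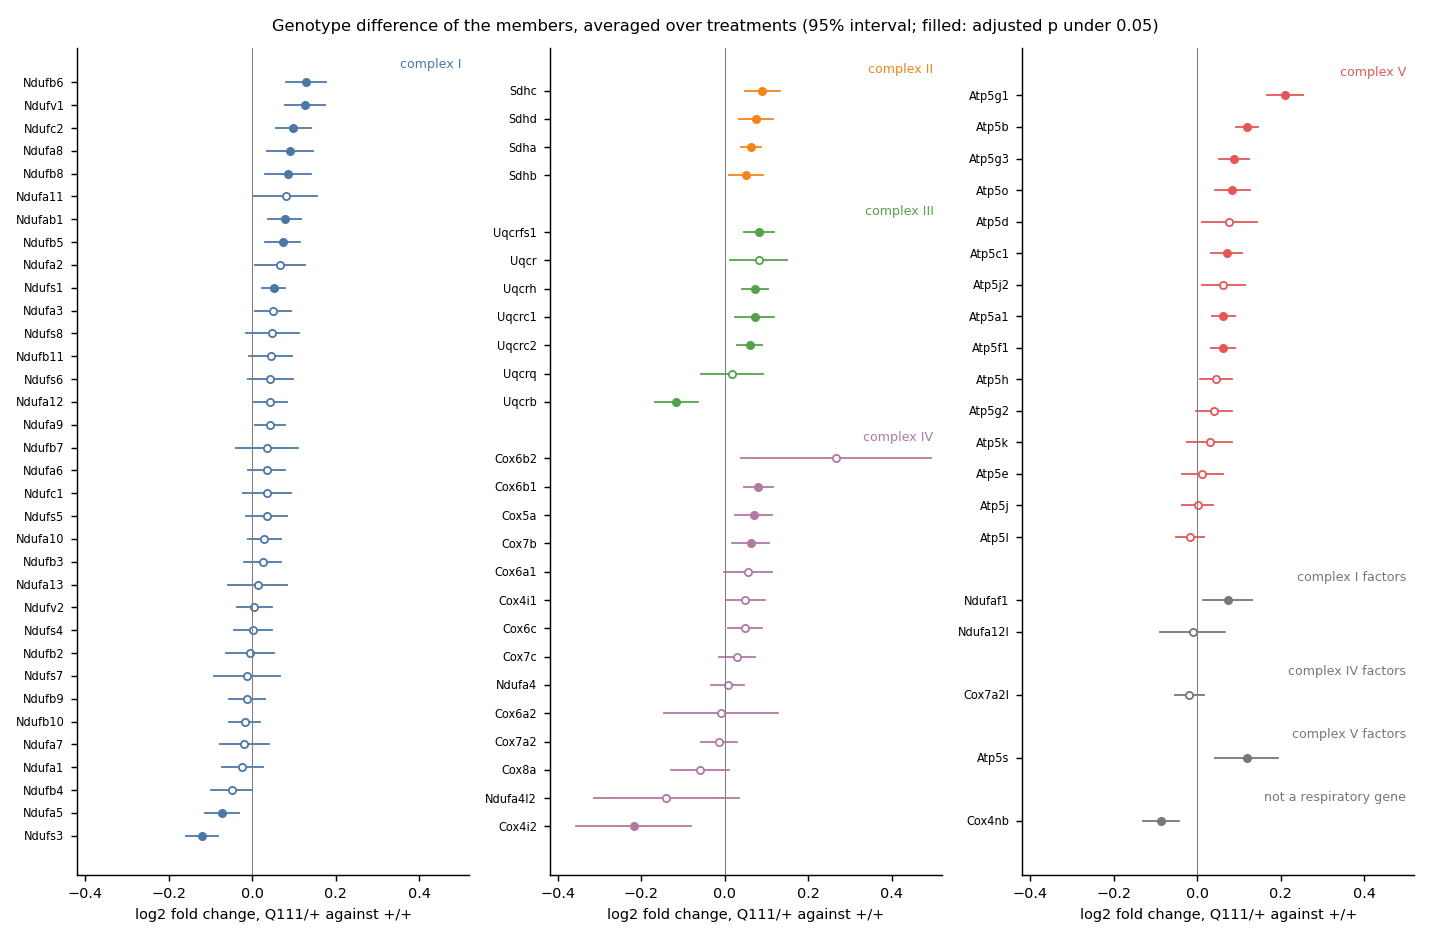
Each point is the log2 fold change of 1 member in HttQ111/+ against Htt+/+ mice averaged over treatments (x axis), with its 95% interval, grouped by complex; filled points passed an adjusted p of 0.05, and 1 member is not drawn. Most points lie between 0 and 0.1, with Atp5g1 at 0.21 and Cox4i2 at -0.22. The highest point is Cox6b2 at 0.27, which did not pass and had a mean of 1.38 CPM.

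Complex V, the ATP synthase, had 7 of 15 subunits higher and none lower, where 21.8% of all genes rose and 18.0% fell. The median log2 fold change of its subunits was 0.062. Atp5g1 encodes the c subunit, which forms the rotating ring in the membrane. Among Htt+/+ mice its CPM was 99.3 to 114.1 (median 108) on saline, 95.7 to 106 (median 101) on control ASO and 102 to 113 (median 105) on Htt ASO. Among HttQ111/+ mice it was 116 to 127 (median 123) on saline, 116 to 133 (median 117) on control ASO and 114.2 to 127 (median 121) on Htt ASO. Every HttQ111/+ mouse was above every Htt+/+ mouse, which held for 0.930% of all tested genes and for no other member. Counting both directions, the genotypes did not overlap for 2.21% of all tested genes. The log2 fold change was 0.21 (SE 0.021, adjusted p = 6.24e-10), a level 15.6% above Htt+/+ (95% interval 12.2 to 19.1), and it was 0.15 to 0.22 within the 5 lanes that hold both genotypes.

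The c subunit is made from 3 genes that encode the same mature protein with different import sequences, and the genes differed. Atp5g3 had 164 to 188 CPM (median 169) in Htt+/+ and 172 to 192 (median 183) in HttQ111/+ mice, and rose by 0.088 on the log2 scale (SE 0.018, adjusted p = 1.76e-04). Atp5g2 had 76.9 to 89.8 CPM (median 81.2) in Htt+/+ and 79.5 to 90.8 (median 83.7) in HttQ111/+ mice, with a log2 fold change of 0.039 (95% interval -0.0040 to 0.082, adjusted p = 0.144). The difference between the 3 fold changes was not tested. Of the 50-base windows of Atp5g2 transcripts, 38.3% also occur in transcripts of other genes, against 10.2% for Atp5g1 and none for Atp5g3, so reads of Atp5g2 could be divided among copies.

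Atp5b encodes the catalytic β subunit. In Htt+/+ mice its CPM was 1025 to 1113 (median 1076) on saline, 997 to 1053 (median 1036) on control ASO and 1037 to 1092 (median 1067) on Htt ASO. In HttQ111/+ mice it was 1123 to 1167 (median 1145), 1125 to 1195 (median 1151) and 1101 to 1186 (median 1136) in the same order. Within each treatment the genotypes did not overlap, although the lowest HttQ111/+ mouse was below the highest Htt+/+ mouse over all treatments. How many of all genes separate within a treatment was not counted, so this does not set Atp5b apart. The log2 fold change was 0.12 (SE 0.013, adjusted p = 4.22e-09), or 8.56% (95% interval 6.59 to 10.6).

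The other subunits of the catalytic head and stalks that rose were Atp5a1, the α subunit (log2 fold change 0.062, adjusted p = 4.90e-04), Atp5c1, the γ subunit (0.071, adjusted p = 0.00232), Atp5o, which joins the head to the stator (0.084, adjusted p = 0.00157), and Atp5f1, the stator's b subunit (0.061, adjusted p = 5.87e-04). Atp5a1 had a median of 863 CPM in Htt+/+ and 899.8 CPM in HttQ111/+ mice. Several small subunits stood near 0: Atp5e, the ε subunit, had a log2 fold change of 0.011, Atp5j of 0.00056 and Atp5l of -0.018, and Atp5l shares 68.5% of its windows with other genes. Atp5s, which encodes coupling factor B and not a structural subunit, had 10.3 to 14.2 CPM (median 12.3) in Htt+/+ and 11.6 to 14.2 (median 13.3) in HttQ111/+ mice. It rose by 0.12 on the log2 scale (SE 0.037, adjusted p = 0.0106), with overlapping groups.

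**Figure D2:**
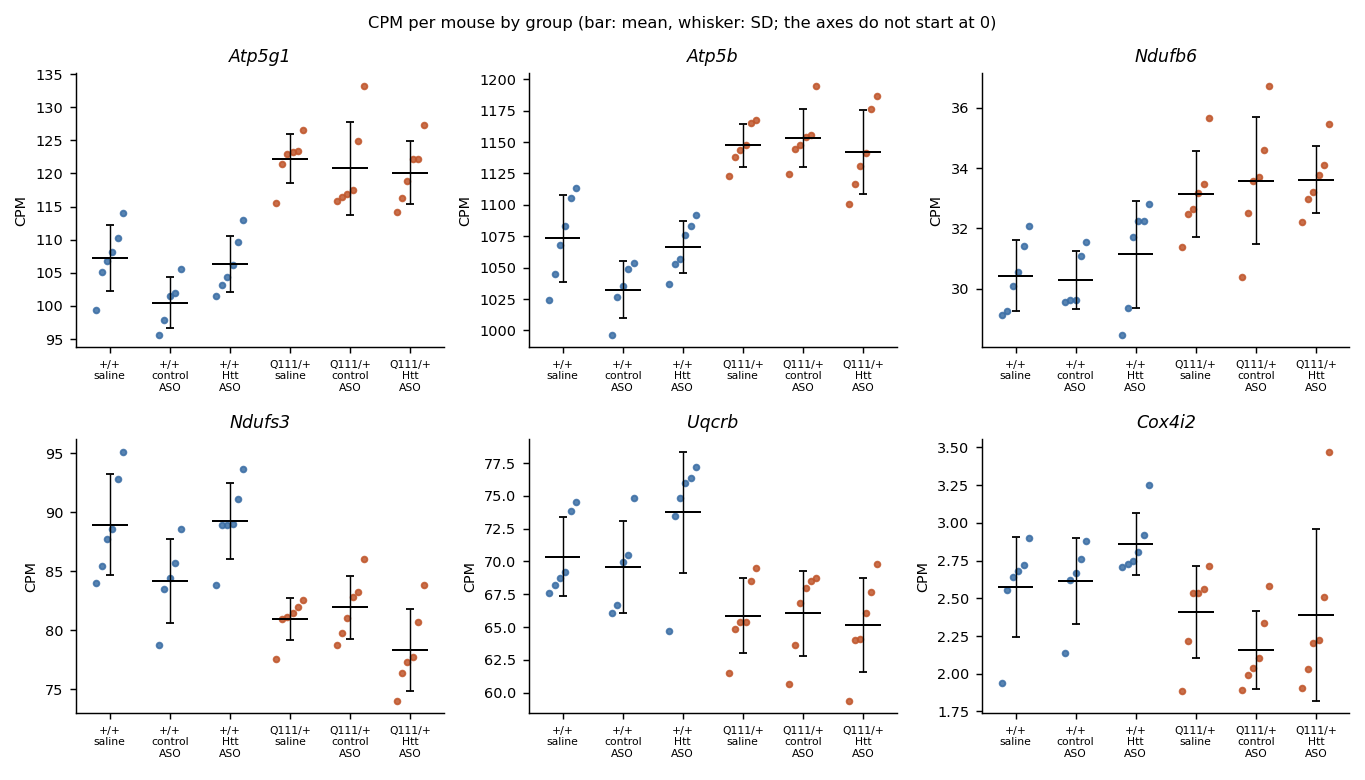
CPM of 6 members (y axis, not starting at 0) in every mouse of the 6 groups (x axis), with the mean and SD. Atp5g1, Atp5b and Ndufb6 sit higher in the HttQ111/+ groups and Ndufs3 and Uqcrb lower, while 1 HttQ111/+ mouse given Htt ASO has the highest Cox4i2 of all at 3.47 CPM.

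Complex II, succinate dehydrogenase, links the citric acid cycle to the chain. All 4 of its subunits rose, where 21.8% of all genes did, with a median log2 fold change of 0.069. Sdha, the flavoprotein that oxidizes succinate, had 387 to 420 CPM (median 406) in Htt+/+ and 410.1 to 441 (median 421) in HttQ111/+ mice. The groups overlap between 410.1 and 420.0 CPM, and the log2 fold change was 0.063 (SE 0.012, adjusted p = 6.08e-05). The membrane anchors Sdhc and Sdhd rose by 0.090 (adjusted p = 5.72e-04) and 0.074 (adjusted p = 0.00273). Sdhb, the iron-sulfur subunit, had the smallest difference, 0.050 (SE 0.020, adjusted p = 0.0428), and it passed in 14 of the 35 fits that each left out 1 mouse and not without lane 7 (adjusted p = 0.162).

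Complex III, which hands electrons to cytochrome c, had 4 of 7 members higher and 1 lower. Of all genes, 21.8% rose and 18.0% fell. The Rieske iron-sulfur protein Uqcrfs1 had 80.1 to 90.0 CPM (median 84.2) in Htt+/+ and 84.4 to 97.5 (median 88.6) in HttQ111/+ mice, and rose by 0.081 on the log2 scale (SE 0.018, adjusted p = 3.15e-04). Uqcrh, the hinge protein at the cytochrome c side, rose by 0.073 (SE 0.015, adjusted p = 2.33e-04), from a median of 126 to 132 CPM. The core proteins Uqcrc1 and Uqcrc2 rose by 0.071 (adjusted p = 0.0151) and 0.059 (adjusted p = 0.00136). For Uqcrc1 the adjusted p was 0.139 with lane as a covariate and 0.157 without lane 7.

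Uqcrb, a small subunit next to the quinone site, went the other way. In Htt+/+ mice it had 67.6 to 74.5 CPM (median 69.0) on saline, 66.0 to 74.8 (median 70.0) on control ASO and 64.7 to 77.2 (median 75.4) on Htt ASO. In HttQ111/+ mice it had 61.5 to 69.5 (median 65.4), 60.7 to 68.7 (median 67.4) and 59.4 to 69.8 CPM (median 65.1). The groups overlap, and the log2 fold change was -0.12 (SE 0.025, adjusted p = 3.06e-04), below 0 in all 5 lanes with both genotypes. Of its 50-base windows 43.2% occur in other genes, among them Gm16089, so its reads could be divided and the value is uncertain.

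Where 21.8% of all genes rose and 18.0% fell, complex I, the entry point for NADH, had 8 of 35 subunits higher and 2 lower. Its other 25 subunits did not pass, and its median log2 fold change was 0.035. In its NADH-oxidizing arm, Ndufv1, which binds NADH and flavin, had 114.0 to 139 CPM (median 125) in Htt+/+ and 124 to 144 (median 138) in HttQ111/+ mice. It rose by 0.13 on the log2 scale (SE 0.024, adjusted p = 6.53e-05), and Ndufs1, the large iron-sulfur subunit, by 0.051 (SE 0.014, adjusted p = 0.00386). Ndufv2, a core subunit of the same arm, had a log2 fold change of 0.0043 (SE 0.021, adjusted p = 0.891). Ndufs7, a core subunit near the quinone site, had a log2 fold change of -0.012 (adjusted p = 0.832).

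Ndufb6, an accessory subunit of the membrane arm, was called under every treatment. Its CPM in Htt+/+ mice was 29.1 to 32.1 (median 30.3) on saline, 29.6 to 31.6 (median 29.6) on control ASO and 28.5 to 32.8 (median 32.0) on Htt ASO. In HttQ111/+ mice it was 31.4 to 35.7 (median 32.9), 30.4 to 36.7 (median 33.7) and 32.2 to 35.5 (median 33.5). Most HttQ111/+ mice were above most Htt+/+ mice, with some overlap, and the log2 fold change was 0.13 (SE 0.023, adjusted p = 3.86e-05). Ndufc2, Ndufb8 and Ndufb5, also of the membrane arm, rose by 0.098, 0.086 and 0.072, and the acyl carrier protein Ndufab1 by 0.077. Ndufa8 rose by 0.090 (adjusted p = 0.00748), and its adjusted p passed 0.05 in 9 of 11 alternatives.

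Ndufs3, a core subunit between the NADH arm and the quinone site, fell. In Htt+/+ mice it had 84.0 to 95.2 CPM (median 88.2) on saline, 78.8 to 88.6 (median 84.4) on control ASO and 83.8 to 93.7 (median 89.0) on Htt ASO. In HttQ111/+ mice it had 77.6 to 82.6 (median 81.3), 78.7 to 86.0 (median 82.0) and 74.1 to 83.8 CPM (median 77.5). On saline the genotypes did not overlap, on Htt ASO they met at 83.8 CPM and on control ASO they overlapped widely. The share of all genes that do not overlap on saline was not counted. The log2 fold change was -0.12 (SE 0.019, adjusted p = 4.53e-06), and 35.8% of its windows occur in other genes, among them Gm12251. Ndufa5, an accessory subunit of the matrix arm, fell by 0.073 on the log2 scale (SE 0.020, adjusted p = 0.00401), with no window shared with another gene, and passed in 9 of 11 alternatives. Ndufb10 (-0.018), Ndufs4 (0.0015) and Ndufv2 were among the 25 that did not pass. Of the assembly factors, Ndufaf1 rose by 0.072 (adjusted p = 0.0470, passing in 15 of 35 fits without 1 mouse) and Ndufa12l, now Ndufaf2, had -0.011 (adjusted p = 0.846).

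Beside 21.8% of all genes higher and 18.0% lower, complex IV, cytochrome c oxidase, had 3 of 14 members higher and 1 lower. Its median log2 fold change was 0.039. Its catalytic core is encoded by mitochondrial DNA and is not among the members. Cox6b1, on the cytochrome c side, had 124 to 139.9 CPM (median 129) in Htt+/+ and 130.3 to 146 (median 137) in HttQ111/+ mice, and rose by 0.080 (SE 0.017, adjusted p = 2.45e-04). Cox5a and Cox7b rose by 0.069 (adjusted p = 0.0103) and 0.062 (adjusted p = 0.0234), each passing in 10 of 11 alternatives. Cox4i1, the most abundant member of the complex per length, had 321 to 388 CPM (median 343) in Htt+/+ and 330.1 to 386 (median 358) in HttQ111/+ mice, with a log2 fold change of 0.049 (95% interval 0.0028 to 0.095, adjusted p = 0.0852).

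Complex IV has subunits in ubiquitous and tissue-restricted isoforms, and here the ubiquitous ones dominated. Cox4i2, the form of lung and of some vascular cells, had 1.94 to 3.25 CPM (median 2.72) in Htt+/+ and 1.89 to 3.47 (median 2.22) in HttQ111/+ mice. It fell by 0.22 on the log2 scale (SE 0.068, adjusted p = 0.00994), with overlapping groups and lane differences from -0.51 to -0.047. Beside it, 5 of 6 endothelial and 3 of 6 mural cell markers fell, with summed levels of 142 to 246 and 178 to 238 CPM in Htt+/+ against 126 to 158 and 165 to 200.0 CPM in HttQ111/+ mice; their part in the result was not tested. Ndufa4l2 had a log2 fold change of -0.14 (95% interval -0.31 to 0.034, adjusted p = 0.200), while its ubiquitous relative Ndufa4 had 0.0066 (adjusted p = 0.821), a difference whose sign changed without lane 7 and after the length correction. Cox6b2, the testis form, had 0.27 (95% interval 0.040 to 0.49, adjusted p = 0.0555), at 0.631 to 1.59 CPM in Htt+/+ and 0.949 to 2.10 in HttQ111/+ mice. Its adjusted p was 0.0482 by DESeq2.

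The muscle form Cox6a2 had 2.88 to 4.91 CPM in Htt+/+ and 2.65 to 4.55 in HttQ111/+ mice, with a log2 fold change of -0.0093 (95% interval -0.15 to 0.13) whose sign changed with library totals and with sample quality weights. Its ubiquitous relative Cox6a1 had 138 to 180.3 CPM in Htt+/+ and 149 to 179.5 in HttQ111/+ mice, with 0.055 (adjusted p = 0.121). Cox7a2 had -0.015 (adjusted p = 0.621) and Cox8a -0.060 (95% interval -0.13 to 0.0092, adjusted p = 0.165). Of 2 skeletal muscle markers tested 1 fell, and the list's summed level stayed between 2.56 and 4.59 CPM in all mice. Cox7a2l, a supercomplex factor, had -0.019 (adjusted p = 0.406). Cox4nb, the gene outside the pathway, fell by 0.088 (SE 0.021, adjusted p = 0.00111).

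The log2 levels of the subunits of a complex, each minus its mean in Htt+/+ saline mice, were averaged per mouse as a description. For complex II, the groups' means ran from -0.049 ± 0.037 (SD, n = 5) in Htt+/+ mice on control ASO to 0.056 ± 0.049 (SD, n = 6) in HttQ111/+ mice on control ASO. For complex V they ran from -0.065 ± 0.019 (SD, n = 5) to 0.044 ± 0.025 (SD, n = 6, HttQ111/+ on saline). Complex I spanned -0.080 ± 0.033 (SD, n = 5) to 0.0039 ± 0.018 (SD, n = 6), complex III -0.082 ± 0.025 (SD, n = 5) to 0.0089 ± 0.022 (SD, n = 6) and complex IV -0.066 ± 0.044 (SD, n = 5) to 0.0028 ± 0.041 (SD, n = 6). In all 5 complexes the lowest mean was that of Htt+/+ mice on control ASO. The complex IV level weights its 14 genes alike. Among them are Cox6b2, Ndufa4l2, Cox4i2 and Cox6a2, at means of 1.38 to 3.68 CPM and with the largest SDs of all members. Their part in the spread of that level was not tested. Within the lanes that hold both genotypes, the difference was above 0 in 5 of 5 lanes for complexes II (0.028 to 0.081) and V (0.020 to 0.096), and ran from -0.027 to 0.069 for complex I, -0.0029 to 0.072 for complex III and -0.053 to 0.077 for complex IV.

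**Figure D3:**
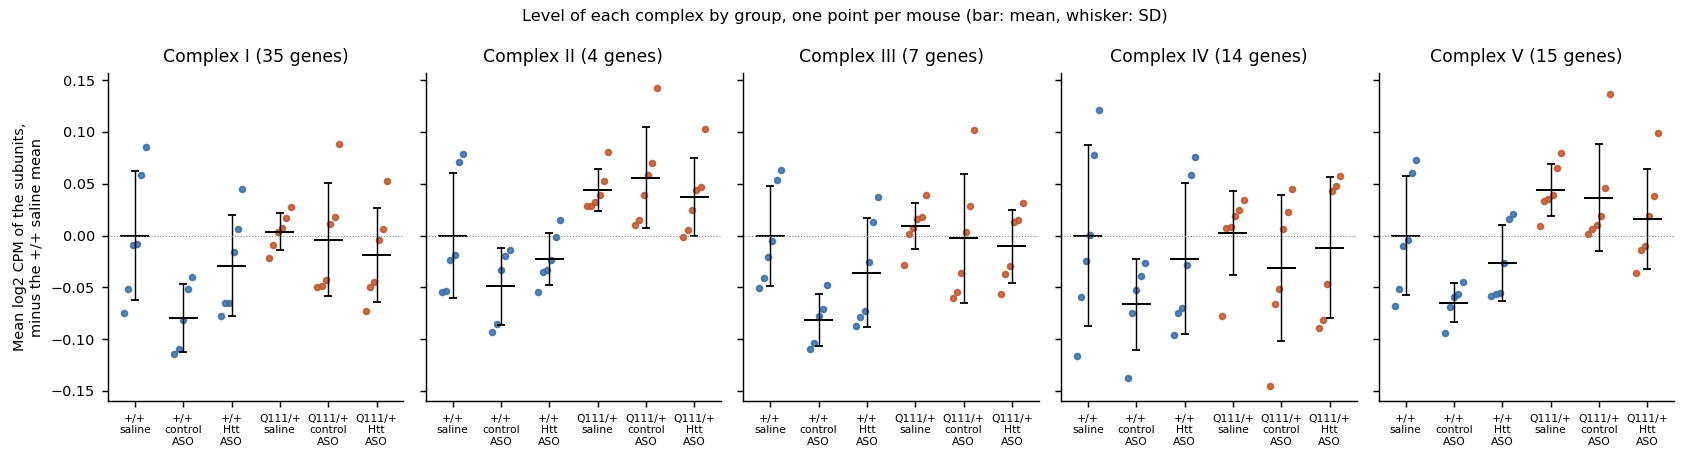
Mean log2 CPM of the subunits of each complex per mouse, minus the mean of Htt+/+ saline mice (y axis), by group (x axis), with the mean and SD. The Htt+/+ mice on control ASO have the lowest mean in each panel, and the HttQ111/+ groups lie highest for complexes II and V.

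Within single treatments, fewer members passed. On saline 7 members rose and 1 fell, where 17.4% of all genes were called, and 5 passed without lane 7. On control ASO 22 rose and 1 fell (18.5% of all genes). On Htt ASO 6 rose and 2 fell (21.2% of all genes). The 3 members called in the same direction under all treatments were Atp5g1, Atp5b and Ndufb6, and 9.04% of all genes were so called. With library totals, 29 members were called on Htt ASO, 24 on saline and 37 on control ASO. Atp5g1 had log2 fold changes of 0.19 on saline (SE 0.036, adjusted p = 2.05e-04), 0.26 on control ASO (SE 0.038, adjusted p = 4.28e-06) and 0.18 on Htt ASO (SE 0.036, adjusted p = 3.83e-04). For Atp5b they were 0.097, 0.16 and 0.099, and for Ndufb6 0.12, 0.15 and 0.11.

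On control ASO the members' median log2 fold change was 0.083, with 74 of 80 above 0, against 0.023 on saline (49 of 80) and 0.022 on Htt ASO (53 of 80). Of all genes, 8910 of 17639 were above 0 on control ASO. Other families differed likewise: mitochondrial ribosomal protein genes had medians of 0.077 on control ASO (61 of 75 above 0), 0.017 on saline and 0.022 on Htt ASO. Proteasome genes had 0.078 (34 of 38 above 0), 0.034 and 0.030, and cytosolic ribosomal protein genes 0.016 (52 of 78 above 0), -0.026 and 0.0015. On control ASO members of each complex were called: 8 of complex I, 3 of complex II, 2 of complex III, 3 of complex IV and 6 of complex V. Sdhc rose by 0.14 (adjusted p = 0.00710) and Cox6a1 by 0.16 (adjusted p = 0.0240), while Cox6a1 had -0.015 on saline and 0.021 on Htt ASO. These calls rest on few mice. Without lane 7, which holds 2 of the 6 HttQ111/+ mice on control ASO, 3 members were called and the median was 0.054, and without replicate 4 of that group alone 13 were called. Corrected for transcript length, 8 rose and 4 fell.

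Markers of other cells moved in the same comparison. On control ASO all 3 blood markers were lower in HttQ111/+ mice (median log2 fold change -1.33), with summed levels of 72.4 to 427 CPM in Htt+/+ and 18.6 to 140.4 CPM in HttQ111/+ mice. Of 6 endothelial markers 4 were lower, at 142 to 246 against 126 to 152 CPM, and of all 17639 genes 1493 were lower. The choroid plexus markers had a median of -1.11 and ranged over 56.2 to 1580 against 43.7 to 75.4 CPM; limma called none of the 5 and edgeR called 4 lower. No blood or choroid plexus marker passed in limma on saline or on Htt ASO. Without the Htt+/+ mouse at 1580 CPM (replicate 1) 25 members were called on control ASO, and without the Htt+/+ mouse with the highest blood and endothelial sums (replicate 2) 17 were; beyond these fits, the part of such markers in the calls was not tested.

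Ndufs3 and Uqcrb differed in the opposite way. Ndufs3 had log2 fold changes of -0.14 on saline (adjusted p = 0.00309), -0.039 on control ASO (adjusted p = 0.473) and -0.19 on Htt ASO (adjusted p = 5.17e-05). Uqcrb had -0.096 (adjusted p = 0.124), -0.074 (adjusted p = 0.267) and -0.18 (adjusted p = 0.00219). Whether such differences between treatments exceed the spread is a matter for the interaction.

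**Figure D4:**
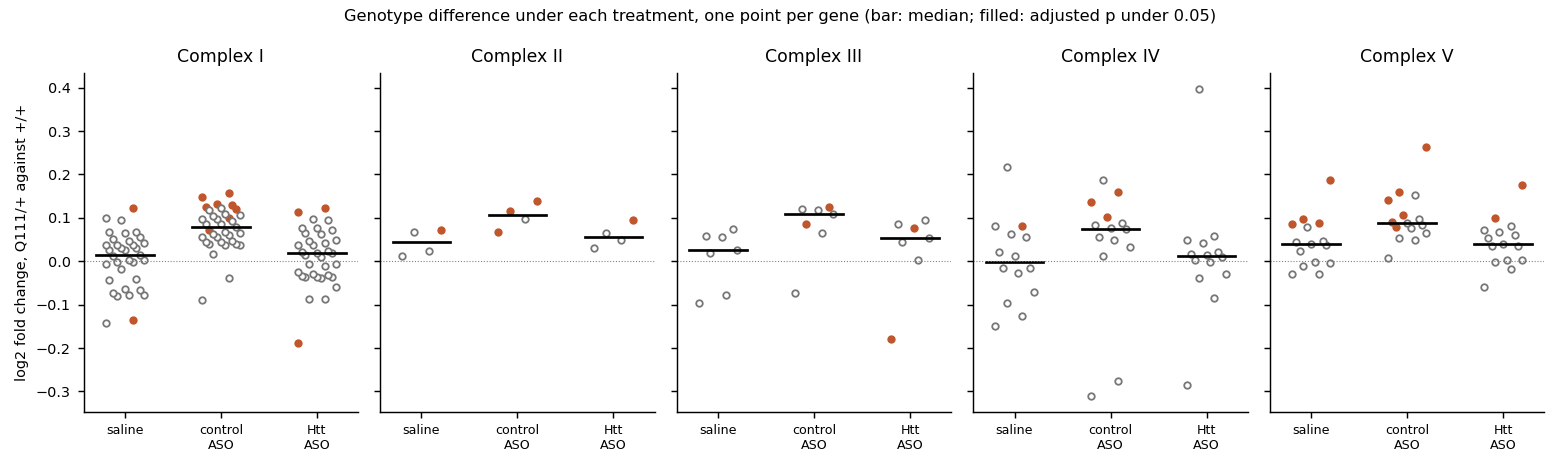
Log2 fold change of HttQ111/+ against Htt+/+ mice under each treatment (y axis), 1 point per subunit, by complex; bars are medians and filled points passed an adjusted p of 0.05. The medians are highest on control ASO in each complex, and the filled points lie mostly above 0, apart from Ndufs3 and Uqcrb.

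Interactions between genotype and treatment were examined in 3 comparisons, and no member passed in any, nor did any gene (0% of genes tested). For Htt ASO against control ASO, 6 of 80 members and 713 of 17639 genes had an unadjusted p under 0.05 in limma. The smallest among members was that of Ndufs3 (log2 difference -0.15, SE 0.048, adjusted p = 0.999). For Htt ASO against saline no member did, against 973 of 17639 genes. Ndufs7 had the smallest p among members, with a log2 difference of 0.16 (SE 0.093, adjusted p = 0.850). For control ASO against saline, a comparison added after seeing the data, 7 of 80 members and 1169 of 17639 genes had an unadjusted p under 0.05. Of the members' differences 72 of 80 were above 0, with a median of 0.059 against -0.0019 for all genes and adjusted p of at least 0.735. The larger count of genotype calls on control ASO is therefore not shown to be a difference between treatments.

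The treatments themselves ask whether silencing huntingtin in peripheral tissues reaches these genes in the striatum. Htt ASO against control ASO, averaged over genotype, called 0.935% of all genes and no member. In limma no member had an unadjusted p under 0.05, against 1140 of 17639 genes. The members' median log2 fold change was 0.0098, and the smallest adjusted p was that of Cox6a1 (0.063, 95% interval -0.0076 to 0.13, adjusted p = 0.856). Among members called by genotype the intervals differed in width: Atp5b had 0.016 (95% interval -0.017 to 0.049), Atp5g1 0.037 (-0.016 to 0.090), Ndufs3 0.0097 (-0.039 to 0.058) and Sdha -0.0081 (-0.038 to 0.022). Wider ones were those of Cox4i2 (0.13, -0.045 to 0.30), Ndufb8 (0.027, -0.042 to 0.095) and Uqcrc1 (0.027, -0.032 to 0.086). The intervals of Ndufb8 and Uqcrc1 include changes as large as their genotype differences of 0.086 and 0.071 upwards but not downwards. That of Cox4i2 includes a rise of the size of its genotype difference, -0.22. In HttQ111/+ mice alone this comparison called 0.357% of all genes and in Htt+/+ mice alone 0.295%, again with no member. In the same order, 0 and 8 members had an unadjusted p under 0.05, against 1135 and 916 of 17639 genes. The median log2 fold changes of the members were -0.013 and 0.043.

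Against saline, Htt ASO called 1.47% of all genes and no member, with 5 of 80 members and 1652 of 17639 genes at an unadjusted p under 0.05. Of the members 15 differed above 0 and the median log2 fold change was -0.020. Uqcrh had the smallest adjusted p, at -0.053 (SE 0.018, adjusted p = 0.233). Control ASO against saline called 0% of all genes in limma, and 15 of 80 members and 1357 of 17639 genes had an unadjusted p under 0.05. Its median over members was -0.031, and Ndufb10 led with -0.063 (SE 0.022, adjusted p = 0.588). Outside the members, 36 of 78 cytosolic ribosomal protein genes had an unadjusted p under 0.05 in this comparison (median -0.049), and 3 of 38 proteasome genes (median -0.018). Saline mice are shared by both comparisons, so their common sign is not 2 observations. In each of the treatment and interaction comparisons the count of members was also 0 under edgeR, DESeq2 and the other alternatives run.

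Other genes of energy metabolism were taken from lists, and are given by genotype averaged over treatments, where 21.8% of all genes rose and 18.0% fell. A list outside the name rule held genes of the respiratory chain together with mitochondrial carriers and porins. Of its 14 tested genes 7 rose and 1 fell, with a median log2 fold change of 0.058. Cyc1, Etfdh, Atpif1, Slc25a4, Slc25a5, Vdac2 and Vdac3 rose, and Ucp2 fell. Cyc1, cytochrome c1 of complex III, had 81.2 to 106.5 CPM in Htt+/+ and 95.8 to 119 CPM in HttQ111/+ mice and rose by 0.19 on the log2 scale (SE 0.030, adjusted p = 2.89e-06), more than any of the 7 complex III members did. Cycs, the carrier cytochrome c, had 0.034 (adjusted p = 0.184). Of 20 assembly genes outside the name rule 7 rose and 1 fell (median 0.055). Of 16 genes of the citric acid cycle and of pyruvate entry, 7 rose (median 0.029). These 7 include Pdha1, Pdhb and Dlat of pyruvate entry. Of 16 glycolytic genes 8 rose and 2 fell (median 0.066).

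Among 12 regulators of mitochondrial biogenesis, 1 rose and 2 fell, with a median log2 fold change of 0.0044. Ppargc1b had a log2 fold change of -0.42 (SE 0.12, adjusted p = 0.00677), Esrra -0.086 (adjusted p = 0.0117) and Tfb1m 0.21 (adjusted p = 1.67e-04). Ppargc1a, a coactivator of the pathway, had 14.3 to 22.22 CPM in Htt+/+ and 15.7 to 22.25 CPM in HttQ111/+ mice. Its log2 fold change was 0.065 (SE 0.054, adjusted p = 0.364). The only mitochondrially encoded gene in the table, mt-Nd4 of complex I, had medians of 12330 and 12170 CPM and a log2 fold change of -0.020 (SE 0.023, adjusted p = 0.512). By treatment it was 0.0081 on saline (adjusted p = 0.927) and 0.049 on control ASO (adjusted p = 0.436), and on Htt ASO it fell by 0.12 (SE 0.038, adjusted p = 0.0257). Averaged over treatments, 23 of 75 mitochondrial ribosomal protein genes rose and 1 fell (median 0.040), beside 21.8% of all genes higher and 18.0% lower. Of 78 cytosolic ribosomal protein genes 10 rose and 7 fell (median -0.0021), and of 38 proteasome genes 21 rose and none fell (median 0.051).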

How the data were processed

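Members and lists were chosen with earlier results of these data known. The authors prepared stranded mRNA libraries, sequenced 50-base paired reads, aligned them to the mouse transcriptome with Bowtie 0.12.9 and estimated gene abundance with RSEM 1.1.18 (mm9, per the submitters' processing notes). The file the authors deposited holds the expected counts from RSEM, without depth scaling, in which a read matching several genes is divided among them. Of these values 55.6% were whole numbers.

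From them, 17639 genes were kept by filterByExpr (minimum count 10, minimum total count 15), scaled by TMM and fitted with voom and limma 3.58.1 (R 4.3.3) as a mean for each of 6 groups over all 35 mice, with Benjamini-Hochberg adjustment and a threshold of 0.05. CPM are on TMM-scaled totals, except for the 1 CPM limit. Log2 levels used a prior count of 2. The treatment labelled ASO1 was taken as Htt ASO. Totals of 32200158 to 38641924 counts per mouse limit the precision of the low members most, and p-values set a group difference against the spread between mice. Mice of a group differed beyond sampling noise in each of 85 pairs (chi-square divided by its degrees of freedom 3.57 to 16.5).

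Alternatives were edgeR 4.0.16 and DESeq2 1.42.0 on counts rounded to whole numbers, library totals, no filter, a 1 CPM filter, lane as covariate, sample quality weights, corrections for transcript length or GC content, structural subunits only, and leaving out the left hemistriatum mouse, lane 7 or each mouse in turn. The interaction of genotype with control ASO, and the fit of genes with a known length without correction, were added after seeing the data. Transcript lengths and windows of 50 bases came from GENCODE M21, known for 83.5% of tested genes and all members. Named genes were the called member with the smallest adjusted p per complex and direction, members called under every treatment, isoform families, core subunits, and the leading member of each treatment comparison and interaction. Further members were named to complete each complex, after their values were seen. The code was tested on simulated counts. Protein tables and the other measurements of the study were not used here, and the values of 1 member are not reported here.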

Additional observations from a re-analysis of the deposited data

Results flagged for a closer look

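Mice were compared within each group for the 29 named members and 6 complex levels, 210 series in all, and 13 held a mouse whose gap to the next exceeded Dixon's 95% value; chance flags about 1 in 20 groups. In HttQ111/+ mice on saline, 1 mouse was lowest for Ndufs3 (77.6 CPM, next 81.0), 1 for Ndufv1 (128 CPM, next 138) and 1 for Cox7a2 (95.2 CPM, next 102), and 1 was highest for Cox4i1 (386 CPM, next 360.0). Replicate 3 of that group had the lowest complex IV level, at -0.077 (next 0.0072) on the log2 scale. In HttQ111/+ mice on control ASO, 1 mouse was highest for Uqcrh (144 CPM, next 132), and replicate 4 had the highest complex V level, at 0.14 (next 0.046). In HttQ111/+ mice on Htt ASO, 1 mouse was lowest for Cox6a1 (151 CPM, next 162).

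Among Htt+/+ mice, the lowest Cox4i2 on saline was 1.94 CPM (next 2.55). On control ASO, the lowest Cox7a2 was 94.8 CPM (next 101) and the lowest Ndufs1 153 CPM (next 163). On Htt ASO, the lowest Uqcrb was 64.7 CPM (next 73.5) and the highest Atp5g2 86.0 CPM (next 81.2). Of the genotype calls, those of 30 of 33 members held in all 35 fits without 1 mouse, and the exceptions were Sdhb, Ndufaf1 and Cox7b.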

How the results depend on the processing

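No paired analysis was possible because the labels give no replicate numbers, and numbers here only name mice. Of the 33 members called by genotype, 26 (22 higher, 4 lower) passed in all 11 alternatives and all 33 kept their direction in every alternative and every fit without 1 mouse, where 30 to 43 members were called. Library totals without TMM raised the median of all genes by 0.039 on the log2 scale and the members called to 58 over all treatments, with 29 on Htt ASO, 24 on saline and 37 on control ASO. Without lane 7, 5 were called on saline and 3 on control ASO, and with the length correction 14 and 12. The length correction turned the called members from 28 higher and 5 lower to 24 and 13, and the fit of the same 14723 genes without it gave 27 and 5. The cause was not tested.

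Single mice moved the counts within treatments. On saline 4 to 10 members were called, with 4 without HttQ111/+ saline replicate 2 or Htt+/+ saline replicate 4 and 5 in 8 other fits. On control ASO 13 to 26 were called, with 13 without HttQ111/+ control ASO replicate 4. On Htt ASO 4 to 9 were called, with 4 without Htt+/+ Htt ASO replicate 4 and 5 without Htt+/+ Htt ASO replicate 5, HttQ111/+ Htt ASO replicate 5 or Htt+/+ saline replicate 5. The sign turned for members that had not passed: library totals gave Cox6a2 0.029, Cox7a2 0.024, Ndufb10 0.021 and Ndufs7 0.027, sample quality weights gave Cox6a2 0.028, and Ndufa4 had -0.0031 without lane 7 and -0.020 with the length correction. Without single mice, Cox6a2 ran from -0.031 to 0.018, Ndufa4 from -0.0028 to 0.015 and Ndufs7 from -0.030 to 0.0039. Each treatment and interaction count was 0 in every setting run.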
